A study of Homo sapiens with 10 samples.

Results

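The H/ACA box snoRNAs are short nuclear RNAs that guide dyskerin, a pseudouridine synthase, to its sites in ribosomal RNA. They were taken here as the rows of the long RNA tables with the biotype snoRNA and a symbol starting SNORA, with rows of 1 symbol summed and symbols of at least 10 counts over the 5 libraries kept. This left 90 symbols of 110, on 373 of 399 rows, among 55775 genes. The members were chosen by their count summed over both groups, so their presence is no finding. Just inside the threshold stood SNORA1 and SNORA38 with 11 counts each and SNORA36C with 12. Just outside it stood SNORA70F and SNORA70E with 7 each and SNORA71 and SNORA11C with 5 each.

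The 10 samples came from BEAS-2B, an immortalised human bronchial epithelial line, and every sample was of a stable line kept under G418 selection. The compared lines carried a TAF1C vector or an empty vector (eV) on the pCMV6 backbone, and the labels do not say how many clones these lines were. Long RNA was sequenced from 3 samples labelled TAF1C and 2 labelled eV, and small RNA from 3 labelled TAF1C and 2 labelled eV. Separate cultures are not stated for the replicates, and p values then measure only the spread between these samples. TAF1C belongs to SL1, which brings RNA polymerase I to ribosomal RNA genes, and the comparison asks which RNAs differ between the lines.

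The long RNA libraries held 37533366, 36481548 and 34212883 counts with the TAF1C label and 22809601 and 28476151 with the eV label. The TAF1C transcript was not higher in the libraries that carry its name. Its level was 63.5, 58.5 and 66.5 CPM (counts scaled by library total and TMM factor) in the libraries labelled TAF1C and 63.9 and 77.1 CPM in eV. The groups overlapped, and edgeR gave a log2 fold change of -0.17 ± 0.13 (SE) at an adjusted p = 0.354. Each library is hence called by its label. Markers of photoreceptors and neurons, summed, were high in the eV libraries. The 5 photoreceptor markers summed to 4.75, 3.03 and 3.74 CPM in the TAF1C libraries and 817 and 840.4 CPM in eV, and 4 of the 4 tested fell. The 4 neuron markers summed to 3.34, 5.10 and 4.75 CPM in the TAF1C libraries and 183 and 162 CPM in eV, and 3 of the 3 tested fell, with STMN2 at 0 in eV 2 alone. The 7 BEAS-2B markers, KRT8 and VIM foremost, summed to 634, 628 and 620.0 CPM in the TAF1C libraries and 251 and 251 CPM in eV, where 3 rose and EPCAM fell. Of the 2 hepatocyte markers, TF stood at 105 CPM in eV 1 and at no more than 1.56 CPM elsewhere, and did not pass (edgeR adjusted p = 0.0566). The other, ALB, had 0.311, 0.467 and 0.123 CPM in the TAF1C libraries and 0.295 and 0.176 CPM in eV. The photoreceptor, neuron and BEAS-2B marker sums move with every difference given here, and the part of these markers in it was not tested. In bulk libraries, fewer cells of a type and less RNA per cell cannot be told apart.

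An H/ACA snoRNA folds into hairpins followed by the H and ACA boxes, and the pocket in a hairpin pairs with the RNA to be modified. Dyskerin, NHP2, NOP10 and GAR1 coat it, and the same proteins bind Cajal body RNAs and the telomerase RNA. Most human H/ACA snoRNAs are trimmed out of introns of a host transcript, so a snoRNA and its host come from 1 precursor. A few are cut further into microRNAs. SNORA73, also called U17, acts in cleavage of the ribosomal RNA precursor rather than in pseudouridylation.

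The tables given with the data hold no snoRNA sequence, but they hold the microRNA hairpins that lie inside H/ACA snoRNA loci, and these link the small RNA libraries to the members. RefSeq (GRCh38.p14) places MIR664A, at chr1:220200538-220200619 on the minus strand, over SNORA36B, with 74 of its 82 bases shared. It places MIR664B, at chrX:154768596-154768656 on the plus strand, wholly inside SNORA36A, an intronic snoRNA of the dyskerin gene DKC1. Both hairpins are shown because they are the direct small RNA readout of these loci, with the annotated mature arms in capitals.
MIR664A hairpin: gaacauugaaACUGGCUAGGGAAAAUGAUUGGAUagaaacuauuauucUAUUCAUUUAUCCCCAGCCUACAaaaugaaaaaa
MIR664B hairpin: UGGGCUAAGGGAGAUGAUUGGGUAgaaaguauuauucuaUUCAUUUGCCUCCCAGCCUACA
The mature microRNAs found in the small RNA tables follow with the seed, bases 2 to 8, in capitals. The last lies in SCARNA16, an H/ACA RNA of Cajal bodies, for comparison.
hsa-miR-664a-5p: aCUGGCUAgggaaaaugauuggau
hsa-miR-664b-5p: uGGGCUAAgggagaugauugggua
hsa-miR-664b-3p: uUCAUUUGccucccagccuaca
hsa-miR-6516-5p: uUUGCAGUaacaggugugagca
No 2 of these seeds were the same, and the seeds of miR-664a-5p and miR-664b-5p differed although the snoRNAs share a family name. MIR1248 in SNORA81, MIR3651 in SNORA84 and MIR1291 in SNORA2C also overlapped a snoRNA, and their mature forms were not analysed here.

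A single RNA carried much of the family. SNORA73B, lying in SNHG3, a noncoding host, and in RCC1 on chromosome 1, had 233, 198 and 196 CPM in the libraries labelled TAF1C and 93.7 and 197 CPM in eV. The eV 1 library stood far below the other 4, and eV 2 lay within the range of the TAF1C libraries, so the groups overlapped. It held 43.6%, 43.7% and 40.8% of all member counts in the TAF1C libraries and 26.5% and 43.7% in eV. Its log2 fold change was 0.52 ± 0.32 (SE), which did not pass (edgeR adjusted p = 0.237). Without eV 2 it was 1.13, and without eV 1 it was 0.017. Each of these fits leaves a single eV library and cannot measure the spread between eV libraries. SNHG3, taken as the host, had 403, 337 and 366 CPM in the TAF1C libraries and 148 and 338 CPM in eV, the same low library. RCC1, which also holds the locus, had 201, 202 and 203 CPM in the TAF1C libraries and 81.6 and 124 CPM in eV. It rose by 0.97 ± 0.20 (SE, edgeR adjusted p = 0.0136). Per kilobase of snoRNA, SNORA73B stood at 1020.2 CPM in TAF1C and 710.1 CPM in eV, above every other member with a known length. In the TAF1C libraries SNORA74A followed, with 264 CPM per kilobase in TAF1C and 117 in eV, then SNORA12 with 185 in TAF1C and 184 in eV, SNORA71A with 181 in TAF1C and 108 in eV, and SNORA23 with 131 in each. In eV, SNORA12 and SNORA23 stood above SNORA74A. The order of SNORA12 and SNORA71A in the TAF1C libraries was within their spread. The 10 most abundant members held 83.4%, 82.1% and 82.4% of member counts in the TAF1C libraries and 62.6% and 77.4% in eV.

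**Figure D1:**
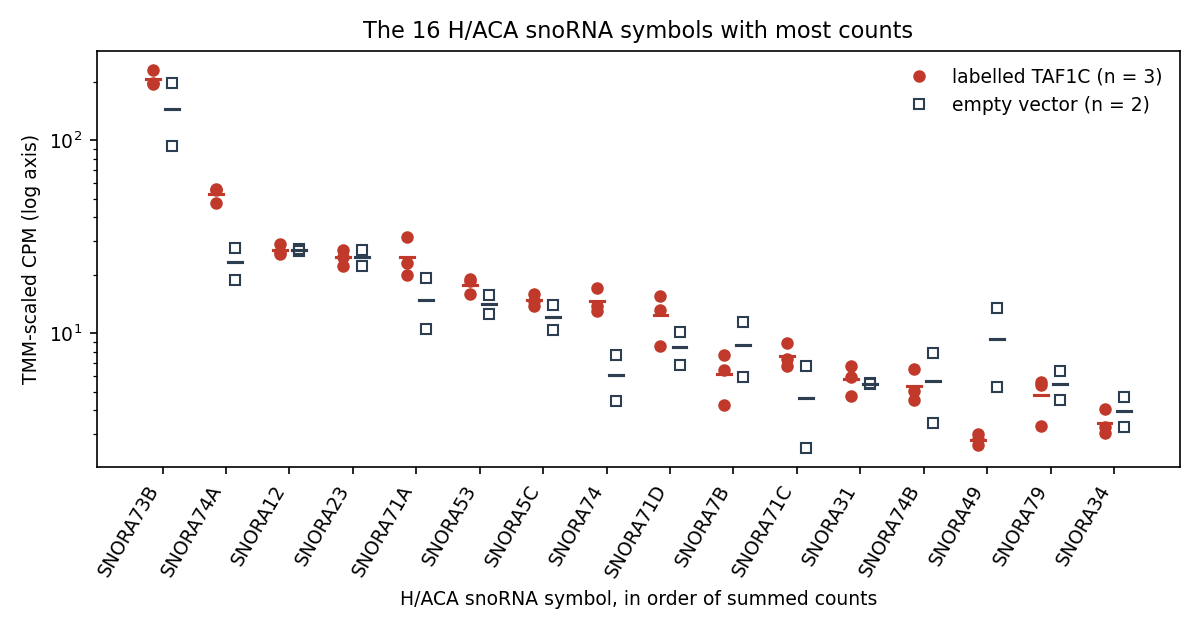
TMM-scaled CPM (log axis) of the 16 H/ACA snoRNA symbols with most counts in each long RNA library; filled circles are the 3 libraries labelled TAF1C, open squares the 2 eV libraries, and bars the group means. SNORA73B ran from 93.7 to 233 CPM, and the groups were apart for SNORA74A and SNORA74.

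Several other abundant members did not pass the test. SNORA12, in an intron of CWF19L1, had 29.0, 25.9 and 26.6 CPM in the TAF1C libraries and 26.6 and 27.5 CPM in eV, at 0.00 ± 0.13 on the log2 scale (SE, edgeR adjusted p = 0.986). SNORA23, in the importin gene IPO7, had 24.9, 22.5 and 27.1 CPM in the TAF1C libraries and 22.3 and 27.2 CPM in eV, again 0.00 ± 0.16 (adjusted p = 0.988). In both the groups overlapped. No call was gained for either with any library left out. SNORA31, whose rare human variants are linked to herpes simplex encephalitis, took 86.2% of its counts from the SNORA31B row in TPT1. It had 6.79, 4.75 and 5.98 CPM in the TAF1C libraries and 5.46 and 5.53 CPM in eV (0.09 ± 0.26, adjusted p = 0.812). SNORA53, in the mitochondrial phosphate carrier gene SLC25A3, had 19.2, 18.7 and 15.9 CPM in the TAF1C libraries and 12.6 and 15.9 CPM in eV, with a log2 fold change of 0.33 ± 0.19 (adjusted p = 0.216). Its lowest TAF1C library stood just above eV 2, so the groups did not overlap, and its log2 fold change was 0.47 without eV 2. SNORA7B, in RPL32P3, had 7.78, 4.26 and 6.47 CPM in the TAF1C libraries and 11.5 and 5.96 CPM in eV, which overlapped (-0.50 ± 0.40, adjusted p = 0.359, and -0.93 without eV 2).

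Against eV, few of the members passed the test on the whole gene table, and more of those fell than rose. Of the 46 members tested (at least 1 CPM in at least 2 libraries), 3 rose, 9 fell and 34 did not pass edgeR's quasi-likelihood test at an adjusted p under 0.05. The 3 raised are 6.52% of the members tested, against 15.9% of all 18402 genes raised. The 9 lowered are 19.6% of the members, against 22.6% of all genes lowered, a share near the background. The groups did not overlap for 9 members above eV (19.6%, against 29.8% of all genes) and for 16 below it (34.8%, against 34.4%). The median log2 fold change of the members was -0.20, from -4.21 to 1.27, and that of all genes was -0.10. The members' median was above 0 with a filter at 5 CPM, without either eV library and with rows not summed (0.15, 0.012, 0.067 and 0.084). These fits tested other sets, of 15, 35 and 35 members and 38 rows, against 46 members. The other 44 members were too low to test, at means of up to 0.910 CPM, and 31 of them had the lower mean in the TAF1C libraries and 13 the higher. The eV libraries differed more from each other than the others did. Over the tested members, log2 differences within a pair of libraries had an SD of 0.349, 0.261 and 0.347 for the TAF1C pairs and 0.717 for the eV pair. Without eV 1, 5 of 35 members rose (14.3%) and 3 fell (8.57%), against 29.0% and 29.5% of all genes in that fit. Without eV 2, 11 of 35 rose (31.4%) and 7 fell (20.0%), against 35.8% and 34.0% of all genes. Without TAF1C 1, 2 or 3, 1 rose each time (2.17%, 2.27% and 2.17% of those tested) and 2, 1 and 1 fell (4.35%, 2.27% and 2.17%). Of all genes in those fits 5.84%, 6.48% and 5.94% rose, and 11.3%, 10.7% and 11.1% fell.

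SNORA74A, or U19, was the raised member with the smallest adjusted p. Its row, ENSG00000200959 on chromosome 5, had 55.1, 47.7 and 55.8 CPM in the TAF1C libraries and 19.0 and 27.7 CPM in eV. Every TAF1C library lay above both eV libraries. This was 2.26-fold higher, at 1.18 ± 0.20 on the log2 scale (SE, edgeR adjusted p = 0.00771), and it passed in 14 of 14 alternatives, at 0.87 to 1.44 and adjusted p of at most 0.0433. SNORA74, a symbol of 7 rows, drew 96.7% of its counts from the row now named SNORA74D, which lies in the same host. It had 17.2, 13.0 and 13.8 CPM in the TAF1C libraries and 4.46 and 7.72 CPM in eV, with no overlap and a log2 fold change of 1.27 ± 0.31 (adjusted p = 0.0244). Its adjusted p reached 0.0994 over the alternatives, and it did not pass without TAF1C 1, 2 or 3 or with the replicate block. The related SNORA74B, in the proton pump gene ATP6V0E1, had 6.53, 4.52 and 5.06 CPM in the TAF1C libraries and 7.96 and 3.42 CPM in eV, where the groups overlapped (-0.08 ± 0.42, adjusted p = 0.891).

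The third raised member was SNORA5A, from TBRG4, a gene for a protein of mitochondrial RNA. SNORA5A had 4.64, 4.11 and 3.74 CPM in the TAF1C libraries and 1.77 and 2.26 CPM in eV. No values overlapped, and the difference was 1.05 ± 0.30 on the log2 scale (SE, edgeR adjusted p = 0.0384). It did not pass in 6 of 13 alternatives that tested it, without TAF1C 1, 2 or 3 among them. SNORA5C, from another intron of the gene, had 14.7, 13.8 and 16.1 CPM in the TAF1C libraries and 14.0 and 10.4 CPM in eV, which overlapped (0.28 ± 0.21, adjusted p = 0.317, and 0.45 without eV 1). The SNORA5B row, the third in this gene, was at 0 in all 5 libraries. TBRG4 itself rose, with 136, 130.3 and 134 CPM in the TAF1C libraries and 66.6 and 90.6 CPM in eV (0.76 ± 0.16, adjusted p = 0.0144).

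The promoters of the loci with raised members are shown because 2 raised symbols share one of them. They are RefSeq windows (GRCh38.p14) of 300 bases, with the 50 bases from the annotated start in capitals. RefSeq places SNORA74A and SNORA74D inside both SNHG4 and MATR3, and MATR3 is the one with counts used here. The SNHG4 window, at chr5:139273851-139274150 on the plus strand, is also that of MATR3. The TBRG4 window is chr7:45111648-45111947 on the minus strand.
SNHG4 and MATR3 promoter: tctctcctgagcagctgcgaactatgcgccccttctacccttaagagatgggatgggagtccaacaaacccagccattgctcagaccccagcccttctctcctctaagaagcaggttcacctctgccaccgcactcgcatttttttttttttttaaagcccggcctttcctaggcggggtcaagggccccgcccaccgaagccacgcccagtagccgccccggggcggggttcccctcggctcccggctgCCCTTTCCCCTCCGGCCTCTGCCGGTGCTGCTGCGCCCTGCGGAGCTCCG
TBRG4 promoter: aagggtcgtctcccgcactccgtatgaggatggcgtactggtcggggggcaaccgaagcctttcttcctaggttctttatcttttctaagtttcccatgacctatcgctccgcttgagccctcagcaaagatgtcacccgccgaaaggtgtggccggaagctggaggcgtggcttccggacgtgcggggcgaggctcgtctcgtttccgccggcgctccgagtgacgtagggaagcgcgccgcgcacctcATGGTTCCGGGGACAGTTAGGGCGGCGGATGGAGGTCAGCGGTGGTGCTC
The motif CACGTG, which reads the same on both strands, was found 0 times in either window and in 2548 of 35116 windows of this length (7.26%). No match says only that these letters are not in these windows. SNHG4 was not analysed here, so no value of it stands beside the snoRNAs. MATR3, a nuclear matrix protein, had 586, 628 and 569 CPM in the TAF1C libraries and 506 and 702 CPM in eV. Its groups overlapped, and its log2 fold change was -0.02 ± 0.18 (edgeR adjusted p = 0.928), beside 1.18 for SNORA74A.

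Among the 9 lowered members SNORA47 changed most. It lies on chromosome 5 in ZBED3, a zinc finger gene, and had 0.566, 0.204 and 0.153 CPM in the TAF1C libraries and 8.37 and 3.21 CPM in eV. All TAF1C values lay below both eV values, 18.5-fold lower in the fit, at -4.21 ± 0.70 on the log2 scale (SE, edgeR adjusted p = 0.00753). Without TAF1C 2 its adjusted p was 0.0520. SNORA47 was under 1 CPM in every TAF1C library and reached the test filter only through the eV libraries. So did SNORA80B, SNORA73, SNORA67, SNORA63, SNORA72 and SNORA2. Members that enter in this way are lower in the TAF1C libraries by selection, so their direction is no support for a fall. ZBED3 also fell, with 3.51, 1.90 and 2.42 CPM in the TAF1C libraries and 16.4 and 11.8 CPM in eV, at -2.43 ± 0.34 (adjusted p = 0.00439).

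SNORA49, in the chromatin remodeller gene EP400 on chromosome 12, had 3.0, 2.83 and 2.64 CPM in the TAF1C libraries and 13.5 and 5.25 CPM in eV. The TAF1C values were close together and below both eV values (-1.73 ± 0.42, SE; edgeR adjusted p = 0.0249). EP400 had 68.1, 62.3 and 62.6 CPM in the TAF1C libraries and 154 and 93.5 CPM in eV, and fell by 0.94 on the log2 scale (adjusted p = 0.0200). Without eV 1, SNORA49 was at -0.96, and with the replicate block it did not pass (adjusted p = 0.082). SNORA80B, in the ornithine decarboxylase gene ODC1, had 0.452, 0.175 and 0.521 CPM in the TAF1C libraries and 1.29 and 1.52 CPM in eV, again without overlap (-1.86 ± 0.53, adjusted p = 0.0397). ODC1 had a log2 fold change of -0.72 ± 0.37 (adjusted p = 0.172). SNORA49 and SNORA80B did not pass without TAF1C 1, 2 or 3.

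The remaining 6 lowered symbols, SNORA73, SNORA67, SNORA63, SNORA72, SNORA2 and SNORA70, each sum 3 to 30 rows. In each the row with most counts has only a family name, with no current name or RefSeq locus of its own. SNORA73, the U17 family rows other than SNORA73B, had 0.339, 0.0875 and 0.276 CPM in the TAF1C libraries and 1.70 and 1.48 CPM in eV (-2.74 ± 0.58, SE; edgeR adjusted p = 0.0155). Without TAF1C 3 its adjusted p was 0.0614. SNORA67 had 0.396, 0.438 and 0.368 CPM in the TAF1C libraries and 3.02 and 1.16 CPM in eV (-2.37 ± 0.51, adjusted p = 0.0167). Both were lower in every TAF1C library than in either eV library. SNORA63 and SNORA72 fell by 2.06 and 1.45 on the log2 scale, and SNORA2 and SNORA70 by 1.32 and 1.17. These 4 and SNORA67 did not pass without TAF1C 1, 2 or 3. SNORA2 was also lost with DESeq2 and with no filter (adjusted p = 0.0717 and 0.185), and the leading row of SNORA70 reversed to 0.089 when rows were not summed (adjusted p = 0.919). Of the 9 lowered members 7 were higher in eV 1 than in eV 2, as were 0 of the 3 raised and 18 of all 46.

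**Figure D2:**
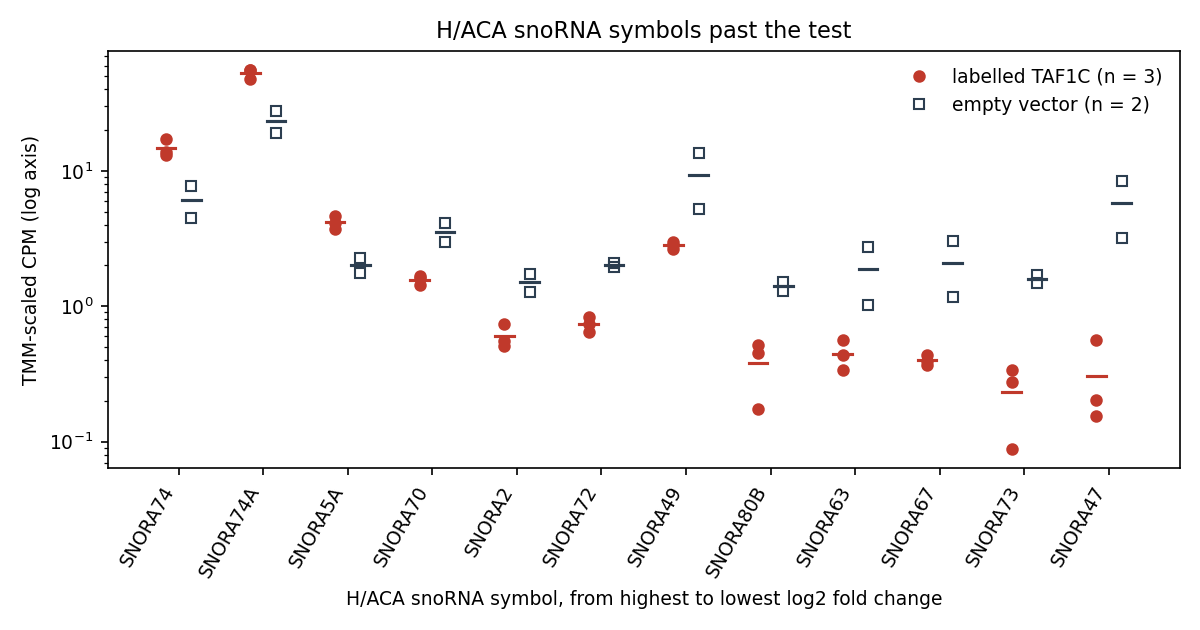
TMM-scaled CPM (log axis) of the 12 H/ACA snoRNA symbols past the test, from highest to lowest log2 fold change; filled circles are the 3 libraries labelled TAF1C, open squares the 2 eV libraries, and bars the group means. The groups are apart in each symbol, and the lowered symbols lay under 4 CPM in the TAF1C libraries.

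The split between rows with a name of their own and rows with a family name only was described after the values were seen, so it carries no test. The 106 member rows with a name of their own summed to 516, 434 and 465 CPM in the TAF1C libraries and 310 and 422 CPM in eV. The TAF1C libraries lay above both eV libraries, and without SNORA73B the sums were 283, 236 and 268 CPM in TAF1C and 216 and 225 CPM in eV. The 267 rows with a family name only summed to 18.2, 20.1 and 17.4 CPM in the TAF1C libraries and 44.0 and 29.5 CPM in eV, the opposite order. Among tested members led by a row with its own name, 3 of 35 rose and 3 fell (8.57% each), with a median log2 fold change of 0.04. Among those led by a family row, 0 of 11 rose and 6 fell (54.5%), with a median of -1.17. Of the lowered, SNORA73, SNORA67, SNORA63, SNORA72 and SNORA2 reached the test filter only through the eV libraries. So did SNORA47 and SNORA80B among those led by a row with its own name. Of all genes 15.9% rose and 22.6% fell. The filter thus favours falls among such low symbols, and the 54.5% cannot be read as a trait of family rows. Rows of 1 family can be near-identical copies, and the sources used here do not say how reads that match several of them were counted. The family sums are therefore uncertain. With rows kept apart, 38 member rows could be tested. Of these 4 rose (10.5%, against 15.8% of all rows tested) and 6 fell (15.8%, against 22.6%). SNORA26's own row, in the noncoding RNA DANCR, was among the raised (1.45 ± 0.40, edgeR adjusted p = 0.0346), while the summed symbol was at 0.67 ± 0.43 (adjusted p = 0.256). The row was named after its value was seen.

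SNORA42, SNORA13 and SNORA54 were tested and did not pass. SNORA42 is the name of a reported lung cancer oncogene, and here a symbol that sums 5 rows. The symbol had 1.44, 1.28 and 2.27 CPM in the TAF1C libraries and 2.25 and 2.19 CPM in eV, and the groups overlapped (-0.41 ± 0.37, SE; edgeR adjusted p = 0.415). Its rows carry the current names SNORA80D, SNORA80E and SNORA80C among others. The SNORA80D row, in AIMP2, held 54.8% of its 292 counts, and the SNORA80E row, in KIAA0907, held 103 counts. The values are therefore those of a mixed symbol and not of the reported snoRNA alone. SNORA13, which has a part in p53-linked senescence, had 2.21, 1.75 and 1.87 CPM in the TAF1C libraries and 0.663 and 1.59 CPM in eV, with no overlap (0.78 ± 0.46, adjusted p = 0.225, and 1.51 without eV 2). SNORA54, in NAP1L4, had 1.98, 1.43 and 1.38 CPM in the TAF1C libraries and 8.62 and 2.36 CPM in eV, and missed the threshold at -1.78 ± 0.57 (adjusted p = 0.0541). SNORA24 was not tested, and 25 of its 27 counts came from the SNORA24B row. The SNORA21 rows were at 0 in all 5 libraries, and SNORA73A was not analysed here.

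Each member, summed over its rows, was set beside the gene that holds the RefSeq locus of its row with most counts. Strand was not regarded, since the table gives none. Most members had the lower log2 fold change of the pair. Over 35 member and host pairs with 31 distinct hosts, the member was below its host in 30 and above it in 5, with a median difference of -0.28. Members of 1 row were below in 19 of 23 pairs and above in 4. Tested alone, the leading rows of SNORA26, SNORA22 and SNORA11 lay above their hosts, though the sums lay below. They were at 1.45, 1.02 and 0.09, beside 1.43 for DANCR, 0.65 for CCT6A and -0.19 for NUDT13. The other leading rows that could be tested kept their side. The hosts' median was 0.46, and 7 of the 31 hosts rose (22.6%, against 15.9% of all genes) and 3 fell (9.68%, against 22.6%). Without TAF1C 1, 2 or 3, 2 hosts rose and 1 fell each time. In those fits 5.84%, 6.48% and 5.94% of all genes rose, and 11.3%, 10.7% and 11.1% fell. Across these pairs Pearson's r was 0.755 and Spearman's rho 0.554, and r was 0.568 without SNORA47. The pairs share 5 libraries and some share a host, and reads of a host intron can fall on its snoRNA, so these are descriptions only. SNHG17, a noncoding host, had 87.8, 86.7 and 93.2 CPM in the TAF1C libraries and 39.8 and 56.9 CPM in eV and rose by 0.88 ± 0.18 (edgeR adjusted p = 0.0128). Its SNORA71A, SNORA71D and SNORA71C, guides for the small ribosomal subunit RNA, had log2 fold changes of 0.74 ± 0.33, 0.55 ± 0.33 and 0.72 ± 0.45 (SE), with adjusted p of 0.125, 0.237 and 0.249. Without eV 2 the 3 were at 1.21, 0.83 and 1.56, and without eV 1 SNORA71C was at 0.12. SNORA71A had 31.6, 20.2 and 23.1 CPM in the TAF1C libraries and 10.6 and 19.3 CPM in eV, where no values overlapped. ATP6V0E1 rose by 1.27 with SNORA74B at -0.08, and NAP1L4 rose by 0.49 with SNORA54 at -1.78. Whether a snoRNA and its host differed in response was not tested.

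**Figure D3:**
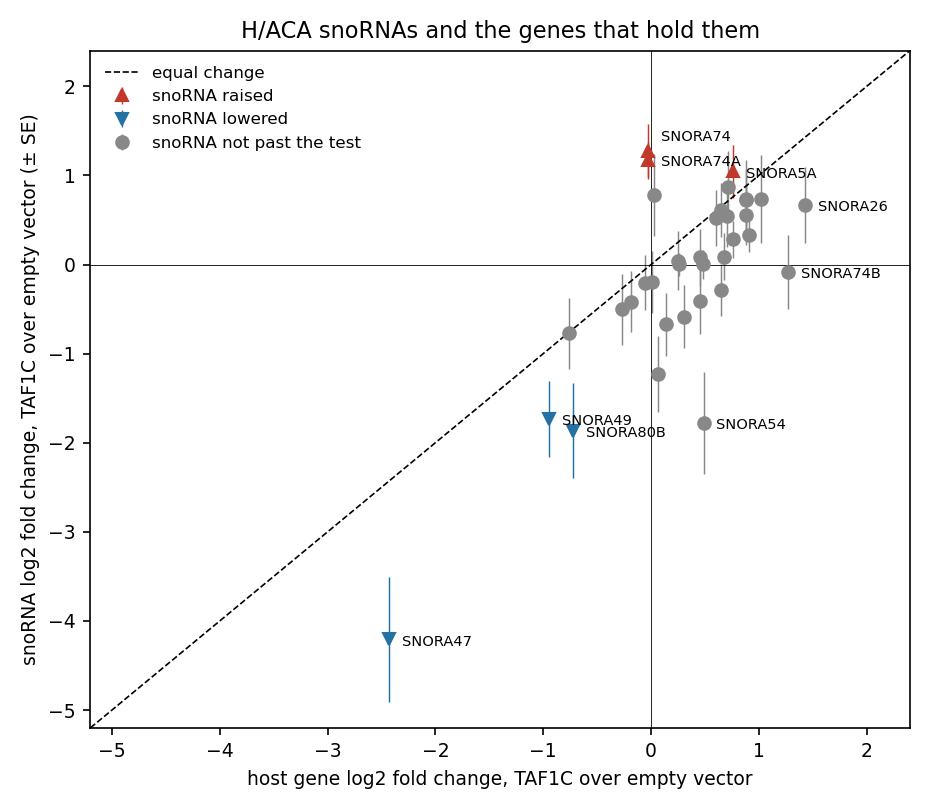
Log2 fold change, TAF1C over eV, of 35 tested H/ACA snoRNA symbols, summed over their rows (vertical axis, bars are SE). The horizontal axis is that of the gene holding the row with most counts. Triangles mark snoRNAs past the test and the dashed line equal change. In 30 of 35 pairs the point lies under the line, and SNORA74A and SNORA74, which lie in SNHG4 as well as MATR3, are drawn against MATR3 at -0.02 and lie above it.

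Many named snoRNAs had no counts although their hosts were well expressed. Of 116 rows with a RefSeq locus inside a gene of the table, 35 were at 0 in all 5 libraries. The hosts of these rows had a median of 148 CPM in TAF1C and 126 CPM in eV, and hosts of the 81 rows above 0 had 82.9 CPM in TAF1C and 61.4 CPM in eV. TAF1D, like TAF1C a subunit of SL1, holds SNORA1, SNORA8, SNORA18, SNORA25, SNORA32 and SNORA40, and 6 of its 6 rows were at 0. TAF1D itself had 116, 136 and 120.5 CPM in the TAF1C libraries and 74.7 and 137 CPM in eV (0.23 ± 0.26, SE; edgeR adjusted p = 0.510). Counts under SNORA1, SNORA8, SNORA18, SNORA25 and SNORA40 therefore came from other rows. DKC1, the dyskerin gene, had 2 of 2 rows at 0 (SNORA36A and SNORA56), and the translation factor gene EIF4A2 had 3 of 3. Ribosomal protein genes held 15 rows, 10 of them at 0, among them SNORA21 in RPL23, SNORA6 in RPSA and SNORA10 in RPS2. Of 92 hosts, 21 had every row at 0, and 12 of these averaged at least 100 CPM in both groups. A count of 0 allows a level of up to 0.0848, 0.0875 and 0.0920 CPM in the TAF1C libraries and 0.111 and 0.106 CPM in eV, at 3 counts and for counting error only. The sources used here do not say how reads that overlap a snoRNA and its host were assigned, so a row at 0 says nothing on whether the snoRNA was present.

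**Figure D4:**
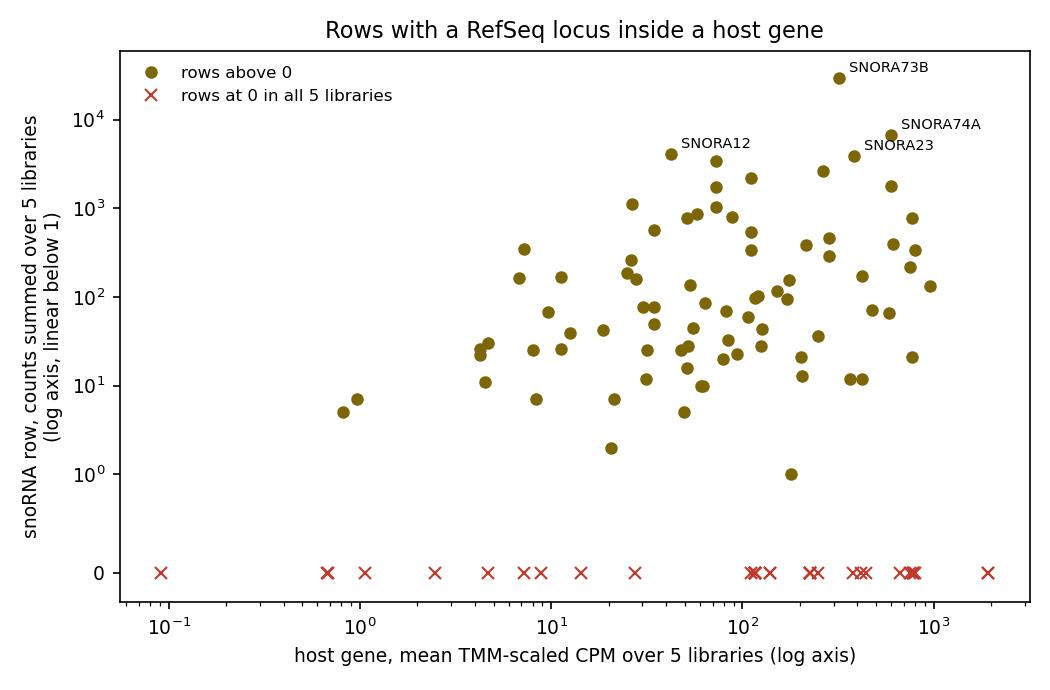
Counts of each H/ACA snoRNA row summed over 5 libraries (vertical axis, log above 1 and linear below) against the mean CPM of its host gene over the 5 libraries (horizontal axis, log); crosses are the 35 rows at 0 and circles the 81 above 0. Rows at 0 occur in hosts above 100 CPM, beside hosts of similar level with counted rows.

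The small RNA readout of the loci did not differ past the test. miR-664a-5p, whose hairpin overlaps SNORA36B, had a normalised signal of 351, 384 and 325 in the small RNA libraries labelled TAF1C and 382 and 365 in eV. The groups overlapped, with a log2 fold change of -0.08 ± 0.12 (SE) on log2(signal + 1) and a limma adjusted p = 0.604. SNORA36B had only 23 long RNA counts over 5 libraries. Of the other snoRNAs with a hairpin, SNORA84 had 1.53, 2.19 and 1.84 CPM in the TAF1C long RNA libraries and 1.62 and 1.97 CPM in eV (0.04 ± 0.33, edgeR adjusted p = 0.931). SNORA34, whose row is now SNORA2C, had 3.28, 3.03 and 4.05 CPM in TAF1C and 3.28 and 4.69 CPM in eV (-0.21 ± 0.31, edgeR adjusted p = 0.627), and both overlapped. miR-664b-5p had 69.4, 56.5 and 29.3 in TAF1C and 44.8 and 40.2 in eV, again overlapping (0.19 ± 0.33, adjusted p = 0.673), while the SNORA36A row in which its hairpin lies was at 0 in long RNA. miR-664b-3p was listed at 0 in all but TAF1C 3, where it was 16.6. miR-6516-5p, from the Cajal body RNA SCARNA16, had 52.0, 33.2 and 38.2 in TAF1C and 60.7 and 77.2 in eV, with no overlap. It fell by 0.75 on the log2 scale (SE 0.24, limma adjusted p = 0.0346), and did not pass without eV 1, eV 2, TAF1C 2 or TAF1C 3 (adjusted p = 0.0595, 0.215, 0.104 and 0.0734). Of 338 microRNAs tested, 21% rose and 19.2% fell.

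The proteins of the H/ACA particle, its assembly and their cofactors were described from a list of 23 genes, 22 of them in the table. They are called particle proteins here, but the list is wider than the particle. It also holds ZNHIT6, an assembly factor of C/D particles, and the telomerase protein TERT. COIL of Cajal bodies, the exosome nuclease EXOSC10 and DBR1, which debranches intron lariats, are in it too. Of these, 5 rose and 0 fell, 22.7% against the 15.9% of all genes raised, with a median log2 fold change of 0.52. GAR1, a core protein, had 12.8, 13.4 and 12.7 CPM in the TAF1C libraries and 6.41 and 9.02 CPM in eV (0.75 ± 0.23, SE; edgeR adjusted p = 0.0458). TCOF1, or treacle, a nucleolar partner of Pol I and of the snoRNP chaperone NOLC1, had 529, 523 and 528 CPM in the TAF1C libraries and 213 and 282 CPM in eV (1.09 ± 0.17, adjusted p = 0.00581). In both, each TAF1C library lay above both eV libraries. RUVBL2, an ATPase of snoRNP assembly, its adaptor PIH1D1 and the trimming exonuclease PARN rose by 1.05, 0.65 and 0.51. The other core proteins did not pass. DKC1 had 146, 153 and 144 CPM in the TAF1C libraries and 69.1 and 182 CPM in eV (0.23 ± 0.38, adjusted p = 0.658). NOP10 was at 0.92 ± 0.31 (adjusted p = 0.0605) and NHP2 at 0.54 ± 0.28 (adjusted p = 0.172). Without TAF1C 1, 2 or 3, 2 of the list rose each time, where 5.84%, 6.48% and 5.94% of all genes rose.

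**Figure D5:**
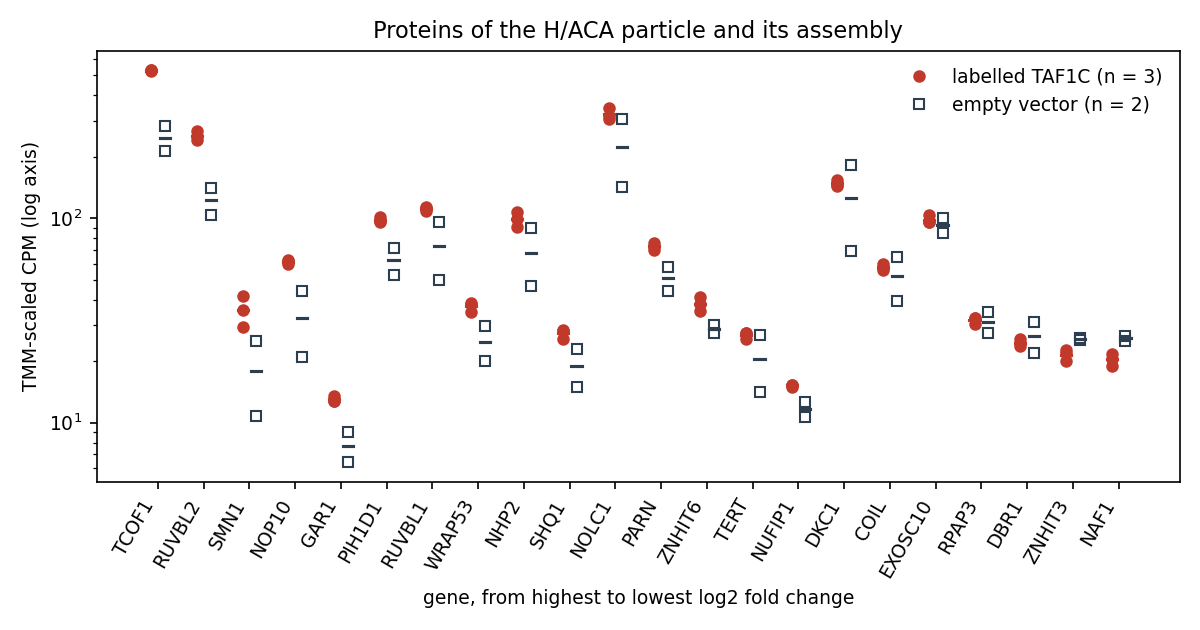
TMM-scaled CPM (log axis) of the 22 listed genes for proteins of the H/ACA particle, its assembly and cofactors, ZNHIT6 and TERT among them, from highest to lowest log2 fold change. Filled circles are the 3 libraries labelled TAF1C, open squares the 2 eV libraries, and bars the group means. TCOF1, RUVBL2, GAR1, PIH1D1 and PARN passed the test, and the eV libraries of DKC1 lay on both sides of the TAF1C libraries.

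The same proteins bind RNAs that act outside the nucleolus. Of 14 H/ACA RNAs of Cajal bodies and telomerase, 7 could be tested, of which 0 rose and 3 fell, 42.9% against the 22.6% of all genes lowered. SCARNA18 had 3.48, 3.47 and 2.91 CPM in the TAF1C libraries and 32.7 and 15.7 CPM in eV, 7.34-fold lower (-2.88 ± 0.35, SE; edgeR adjusted p = 0.00266). SCARNA21, a more abundant one, had 23.6, 23.4 and 22.8 CPM in the TAF1C libraries and 32.2 and 44.2 CPM in eV (-0.72 ± 0.17, adjusted p = 0.0214). SCARNA13 fell by 0.97 (adjusted p = 0.0474), and the TAF1C libraries lay below eV in all 3. TERC, the telomerase RNA, had 199.6, 169.5 and 184 CPM in the TAF1C libraries and 167 and 308 CPM in eV, which overlapped (-0.36 ± 0.26, adjusted p = 0.311). Among the C/D box snoRNAs, the methylation guides, 36 were tested, of which 5 rose (13.9%, against 15.9% of all genes) and 3 fell (8.33%, against 22.6%), with a median log2 fold change of 0.45 beside -0.20 for the H/ACA members. Summed, the H/ACA symbols made 534, 454 and 482 CPM in the TAF1C libraries and 354 and 452 CPM in eV, and the C/D symbols 261, 250.4 and 272 CPM in TAF1C and 227 and 248 CPM in eV. The difference between the classes was not tested.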

How the data were processed

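RNA was isolated with the mirVana kit, and ribosomal RNA was depleted before the long RNA libraries, per the labels' protocols. The submitters' processing notes name DESeq2, Cufflinks 2.2.1, HISAT2, Bowtie2 2.2.4, Trimmomatic 0.36 and the build hg19, without roles. The annotation and the treatment of reads that match several rows are not given in the sources used here. The deposited long RNA values are raw counts per Ensembl gene made by the authors, over 57773 rows. The deposited miRNA values are a signal normalised by the authors in a way not stated, over 612 miRNAs, and their depth is unknown. The deposited piRNA tables were not used.

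Rows of 1 symbol were summed. The counts were tested with edgeR 4.0.16 (quasi-likelihood, TMM, no covariate, R 4.3.3) on all genes that reached 1 CPM in 2 or more libraries. The miRNA signal was tested with limma 3.58.1 with a trend on log2(signal + 1), for miRNAs above 0 in all 5 libraries with at least 10 in 2 or more. Both are two-sided with Benjamini-Hochberg adjustment over the whole table. CPM are TMM-scaled, and totals of 22809601 to 37533366 counts set the precision. Alternatives were library totals, DESeq2 size factors, upper quartile scaling, no filter, a filter at 5 CPM, a robust fit, the replicate block, DESeq2 1.42.0, each library left out, other pseudocounts for miRNAs, higher member thresholds and rows not summed. Single-row members were added after the data were seen.

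Ensembl IDs were paired with current names in a given table, and 125 snoRNA rows had a name of their own and a RefSeq locus. The host is the gene of the table that contains the locus of the row with most counts. RefSeq (GRCh38.p14) served for names, lengths, containment, promoters and microRNAs, and no coordinate of the files was converted. Strand was not used, although the plan had asked for the same strand. The plan had also placed miR-664b in SNORA56, and RefSeq places it in SNORA36A.

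The main fit did not pair samples by replicate number, and the sample titles do not say whether the numbers pair them. The text names the 10 most abundant members, those past the test whose groups do not overlap, members in stated loci or with an overlapping miRNA, snoRNAs of known interest, their hosts and the particle proteins past the test. SNORA54, SNORA74B, SNORA26 and ATP6V0E1 were added to these with their values known. The members and lists were chosen with earlier results of these data known. The fits were tested on simulated data.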

Additional observations from a re-analysis of the deposited data

How the results depend on the processing

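The direction of the members' median moved with the settings, and 1 of the 12 member calls, SNORA74A, passed in every alternative that tested it. With 1 library left out, 1 to 11 members rose and 1 to 7 fell, with a median log2 fold change of -0.30 to 0.067. Of all genes, 1058 to 5966 rose and 1960 to 5665 fell. Of the particle proteins 2 to 16 rose and 0 to 5 fell, and of the hosts 2 to 22 rose and 1 to 8 fell. Fits without 1 eV library take the spread from the TAF1C libraries alone and assume that the lone eV library varies like them.

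The members' median was -0.39 with library totals, -0.14 with DESeq2 size factors in edgeR or with DESeq2, -0.26 with upper quartile scaling and -0.32 with no filter. It was 0.15 with a filter at 5 CPM, 0.084 with rows not summed and 0.081 for single-row members. These medians are over other sets, of 15 members, 38 rows and 23 members, against 46 in the main fit. Of the 23 single-row members 3 fell (13.0%, against 22.6% of all genes). Library totals moved the median of all genes to -0.32, against -0.10 with TMM, and the raised share of called genes to 31.5%, against 41.3%. No filter moved that share to 29.7%. With library totals 2 of the 22 particle proteins fell, where 27.1% of all genes fell. With 5 CPM 1 protein and 1 of 15 members (6.67%) fell, against 26.1% of all genes. With no filter 1816 genes (3.61%) and 2 proteins rose. With DESeq2 9 of the 22 proteins and 11 of the 31 hosts rose, where 20.0% of all genes rose.

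With the replicate block, 1 of 46 members rose (2.17%) and 2 fell (4.35%), at a median of -0.29. Of all genes 1425 rose (7.74%) and 2662 fell (14.5%), and 3 of the 22 particle proteins rose. Samples of the same number deviated together at r = 0.03 and 0.13, over 2 pairs. With 2 eV libraries their deviations mirror each other, so these values cannot decide whether the numbers pair the samples. SNORA70 reversed with rows not summed, where its leading row was at 0.089 (edgeR adjusted p = 0.919). The cause of these moves was not tested. The planned count test of the miRNA values was not run, since whole reads could not be recovered from them. Low counts limit the 44 members not tested.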

Other observations

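Pseudouridine synthases that work without a guide RNA gave a comparison outside the H/ACA particle. Of 12 such genes tested, 3 rose and 0 fell, 25.0% against the 15.9% of all genes raised, with a median log2 fold change of 0.25. TRUB2, a synthase active in mitochondria, had 77.7, 72.0 and 74.7 CPM in the libraries labelled TAF1C and 33.5 and 40.5 CPM in eV, at 1.01 ± 0.13 on the log2 scale (SE, edgeR adjusted p = 0.00327). RPUSD1 had 56.0, 50.4 and 56.9 CPM in the TAF1C libraries and 21.4 and 32.5 CPM in eV (1.01 ± 0.20, adjusted p = 0.0136). RPUSD3 rose by 0.41 (adjusted p = 0.0470). In all 3 the TAF1C libraries lay above both eV libraries. PUS7, which modifies messenger and transfer RNA, had 43.0, 47.8 and 45.2 CPM in the TAF1C libraries and 22.1 and 59.1 CPM in eV and did not pass (0.16 ± 0.39, adjusted p = 0.770).

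One family row stood apart in long RNA. ENSG00000212620, 1 of 8 rows named SNORA75, had 0, 0 and 0 counts in the TAF1C libraries and 23 and 37 counts in eV, and fell when rows were tested apart (edgeR adjusted p = 0.0102). It reached the test filter only through the eV libraries, so its direction was set by that filter. The summed symbol SNORA75 was at -0.28 ± 0.37 (SE, adjusted p = 0.576). The row was named after its values were seen.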
